A study of Mus musculus with 10 samples.

Results

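Mpped2, Stk39, Gng2 and Maged1 are 4 mouse genes whose RNA was compared between the caudal and the rostral part of the embryonic neocortex. They were grouped because their caudal over rostral ratios had stood out in these same pools, 2 of them low and 2 of them high. All 5 array features whose only annotated symbol is one of these names were used, out of 21766 features on the array after control spots were left out. Mpped2, Stk39 and Maged1 had 1 feature each and Gng2 had 2, and all 5 were measured on all 10 arrays. Because the ratios chose the genes, those ratios are described here without a test.

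The tissue was mouse neocortex at stage E11.5, when the wall is mostly dividing neuroepithelium. It came from MF1, an outbred stock, with 3 pools on 6 arrays, and from C57, the inbred C57Bl\6 strain, with 2 pools on 4 arrays. A pool held the caudal or the rostral cortex of 3 embryos, each pair of pools was collected within a litter, and strain served to tell regional differences from strain-dependent ones. The labels name no mutation or treatment. RNA was amplified as cDNA before labelling, and caudal and rostral material of a pool was hybridised together on a 2-colour array, then again with the dyes exchanged.

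Mpped2 encodes a metallophosphoesterase that hydrolyses cyclic nucleotides in vitro. Stk39 encodes SPAK, a Ste20-type kinase that WNK kinases switch on and that phosphorylates the SLC12 cation-chloride cotransporters, which set the chloride content of neurons. Gng2 encodes a gamma subunit of the heterotrimeric G proteins, which pairs with a beta subunit and carries signals from receptors to enzymes and ion channels. Maged1, also called NRAGE, is a MAGE-family adaptor protein that binds the neurotrophin receptor p75 and homeodomain proteins of the Dlx and Msx families.

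Each value is the log2 of caudal RNA divided by rostral RNA, so it is above 0 where a gene had more RNA caudally. No source states which channel was divided by which. Cy5 over Cy3 is the likely reading and was used; with the opposite reading every sign turns. On this reading Nr2f1, a nuclear receptor that is high in caudal cortex, averaged 1.85 ± 0.22 and 0.57 ± 0.20 on its 2 features. Of genes that respond to the rostral FGF source, Spry1 averaged -1.28 ± 0.14, Etv1 -1.43 ± 0.22 and Dusp6 -1.07 ± 0.22. Not all listed gradient genes had these directions. Features of the rostral list had 6 negative and 3 positive means, with Fgf17 at 0.13 ± 0.25. Those of the caudal list had 5 positive and 1 negative, the latter Wnt8b at -0.04 ± 0.40. Errors are moderated standard errors from limma, a linear model that shares the spread between features, and means weight both strains equally over 5 pools unless stated (4 pools for Etv1).

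The test took features that had ratios on both arrays of 2 or more MF1 pools and 2 or more C57 pools, 11855 in all, which name 9214 genes. At a Benjamini-Hochberg adjusted p below 0.05, limma called 0 of them (0%) for the mean of both strains, with a smallest adjusted p of 0.567. Without adjustment, 235 features (1.98%) had a p below 0.05 with more RNA caudally, and 132 (1.11%) with less. Means below 0 made up 30.6% of all tested features, the share to set beside the list counts below. The arrays gave 13723 to 18288 ratios for MF1 and 20191 to 20870 for C57, and their number limits the precision. They were not centred: median ratios of the tested features were -0.18, 0.13 and 0.15 in MF1 pools 1, 2 and 3, and -0.10 and 0.36 in C57 pools 1 and 2. A ratio holds no level, so the presence of cortical markers could not be checked.

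The stretch around each annotated start is shown because the genes fall into a caudally low and a caudally high pair. RefSeq promoter windows of build GRCm38.p6, with 250 bases before and 50 after a start, were found for all 4 genes. They were searched on both strands for AGGTCA, a nuclear receptor half-site, CCGGAA, an ETS core, TAATTA, a homeobox core, and CAGCTG, an E box; no window held more than 1 of them. Capitals mark the matches. Shown are the Mpped2 and Gng2 windows with a match, and the Stk39 window, which has none.
Mpped2 start 2, chr2:106693299-106693598, plus strand: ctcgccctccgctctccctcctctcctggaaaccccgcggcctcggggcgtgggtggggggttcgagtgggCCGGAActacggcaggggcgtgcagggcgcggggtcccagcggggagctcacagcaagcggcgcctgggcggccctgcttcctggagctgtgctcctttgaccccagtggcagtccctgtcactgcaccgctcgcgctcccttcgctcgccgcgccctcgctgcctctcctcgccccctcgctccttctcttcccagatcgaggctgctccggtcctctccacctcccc
Mpped2 start 3, chr2:106694562-106694861, plus strand: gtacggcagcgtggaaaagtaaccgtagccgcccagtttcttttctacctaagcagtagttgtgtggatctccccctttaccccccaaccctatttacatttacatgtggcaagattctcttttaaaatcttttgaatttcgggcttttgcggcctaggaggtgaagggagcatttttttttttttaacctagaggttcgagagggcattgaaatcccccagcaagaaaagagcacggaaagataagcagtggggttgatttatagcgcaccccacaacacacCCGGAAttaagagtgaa
Stk39, chr2:68471932-68472231, minus strand: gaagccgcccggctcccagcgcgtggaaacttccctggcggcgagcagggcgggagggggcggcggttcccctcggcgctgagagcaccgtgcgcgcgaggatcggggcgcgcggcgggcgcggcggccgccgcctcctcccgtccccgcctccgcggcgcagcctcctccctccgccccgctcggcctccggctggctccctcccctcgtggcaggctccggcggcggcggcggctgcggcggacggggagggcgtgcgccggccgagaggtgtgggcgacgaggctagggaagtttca
Gng2, chr14:19976644-19976943, minus strand: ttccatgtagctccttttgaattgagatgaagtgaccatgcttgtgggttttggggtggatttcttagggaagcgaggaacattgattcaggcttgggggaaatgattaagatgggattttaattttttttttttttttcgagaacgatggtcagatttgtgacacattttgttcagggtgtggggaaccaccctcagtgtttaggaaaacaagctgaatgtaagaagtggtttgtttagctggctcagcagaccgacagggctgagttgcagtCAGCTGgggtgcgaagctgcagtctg
The ETS core lies 179 bases before start 2 of Mpped2, and 33 bases after start 3. Its letters occur in 15.2% of the windows of 27025 genes, taking 1 window per gene, whereas Mpped2 has 3. Gng2 has an E box 24 bases after its start, as do 16.1% of promoters anywhere in the window. None of the 6 windows of the 4 genes holds the half-site or the homeobox core, which occur in 16.0% and 5.31% of promoters. The first Mpped2 window and those of Stk39 and Maged1 (chromosome X) hold no match of the 4. The windows also differ in CG dinucleotides: 49 in that of Stk39, 20 in that of Maged1, 5 in that of Gng2 and 10, 28 and 10 in those of Mpped2, against a median of 7 over all promoters. A match describes these letters only, and no binding was measured.

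Mpped2 RNA was lower caudally in all 5 pools. Its feature, AK012553, had log2 ratios of -1.52, -1.16 and -1.31 in MF1 pools 1, 2 and 3, and of -1.10 and -1.30 in C57 pools 1 and 2. Every pool read below -1, and the strains overlapped. The mean was -1.27 ± 0.14, or 2.40-fold lower caudally, and it ranked 11 from the lowest of the 11855 tested features. In such bulk tissue, fewer cells with Mpped2 RNA and less of it per cell cannot be told apart.

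All 10 single arrays gave Mpped2 a negative ratio. As plain means of 5 arrays, they averaged -1.07 with caudal RNA in Cy5 and -1.49 with it in Cy3. The arrays of C57 pool 2 were farthest apart, at -0.59 with Cy5 and -2.01 with Cy3, and so the pool's mean rests on unlike readings. Across the 8924 features measured in all 5 pools, 0.728% were negative in every pool and 0.213% on every array. The same shares for positive ratios were 4.16% and 0.403%. The genes were selected on this contrast, so nothing is read from these shares.

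Stk39 RNA was also lower caudally in every pool, by a smaller amount. Its feature, NM_016866, had ratios of -0.34, -0.81 and -0.77 in MF1 pools 1, 2 and 3, and of -0.91 and -0.69 in C57 pools 1 and 2. MF1 pool 1 stood nearest to 0, the other 4 pools lay close together, and the strains overlapped. The mean was -0.72 ± 0.15, or 1.65-fold lower caudally, at rank 149 from the lowest. All 10 arrays were negative, with plain means of -0.52 with caudal RNA in Cy5 and -0.89 with it in Cy3.

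The features of Gng2 were both positive but differed in size. AK003394 had ratios of 0.11, 1.57 and 1.04 in MF1 pools 1, 2 and 3, and of 1.11 and 0.82 in C57 pools 1 and 2. It was thus near 0 in 1 MF1 pool and clearly positive in the other 4, with a mean of 0.93 ± 0.24 (1.91-fold higher caudally) and rank 54 from the highest. All 10 arrays were positive, although those of MF1 pool 2 read 2.21 with caudal RNA in Cy5 and 0.93 with it in Cy3.

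The other Gng2 feature, NM_010315, had ratios of 0.08, 0.19 and 0.30 in MF1 pools 1, 2 and 3, and of 0.21 and 0.66 in C57 pools 1 and 2. Its mean was 0.31 ± 0.15 (1.24-fold higher caudally), at rank 1581 from the highest, against a median of 0.09 over all tested features. Without C57 pool 2 the mean was 0.20. Its size followed the dyes: arrays with caudal RNA in Cy5 had a plain mean of 0.56 and were all positive. Those with it in Cy3 had a plain mean of 0.02, and 2 of them were positive and 3 negative. Over the pools, the Gng2 features differed by a root mean square of 0.81. The transcripts that the features detect were not compared here.

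Maged1 RNA was higher caudally in 4 of 5 pools. Its feature, NM_019791, had ratios of -0.36, 1.82 and 1.0 in MF1 pools 1, 2 and 3, and of 0.74 and 0.77 in C57 pools 1 and 2. MF1 pool 1 was negative on both of its arrays, at -0.48 and -0.24, whereas the other 8 arrays were positive. The mean was 0.79 ± 0.33 (1.73-fold higher caudally), at rank 125 from the highest. A description as alike across pools therefore held for the sign of Mpped2, Stk39 and Gng2 but not for that of Maged1.

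**Figure D1:**
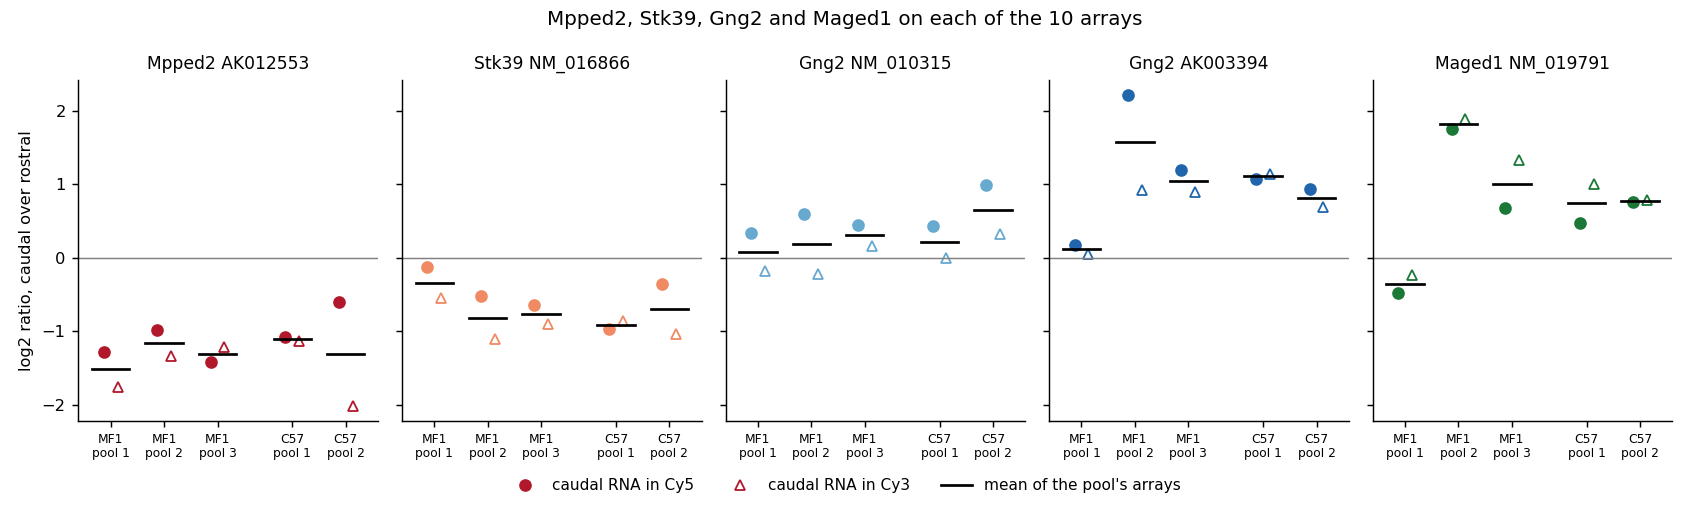
The y axis is the log2 ratio of caudal over rostral RNA on each array, by pool, with MF1 left of C57; filled circles are arrays with caudal RNA in Cy5, open triangles those with it in Cy3, and black lines the mean of a pool's arrays. Mpped2 and Stk39 lie below 0 on all 10 arrays, and Maged1 lies below 0 in MF1 pool 1 alone.

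The ratios of the 4 genes were then compared between the strains. Mpped2 averaged -1.33 in MF1 and -1.20 in C57, so that MF1 minus C57 was -0.13 ± 0.29. Stk39 averaged -0.64 in MF1 and -0.80 in C57, and its difference was 0.17 ± 0.30. The difference was 0.06 ± 0.65 for Maged1, and -0.24 ± 0.30 and -0.05 ± 0.48 for Gng2 NM_010315 and AK003394. All 5 differences were smaller than their standard errors, and 3 and 2 pools leave these errors wide.

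The spread over the pools differed between the genes. The SD over the 5 pools was 0.16 for Mpped2, 0.22 for Stk39 and for Gng2 NM_010315, 0.53 for Gng2 AK003394 and 0.78 for Maged1. The median over the 8924 features was 0.36, and 6.77% of them had an SD no larger than that of Mpped2, whereas 87.8% had one no larger than that of Maged1. Of 17 features with a mean of -1 or lower over the 5 pools, Mpped2 had the smallest SD, against a median SD of 0.94 for the 17. Mpped2 was also the only one of the 17 below -1 in all 5 pools. These same pool values chose the gene, so its place among the 17 is a description and supports nothing further.

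**Figure D2:**
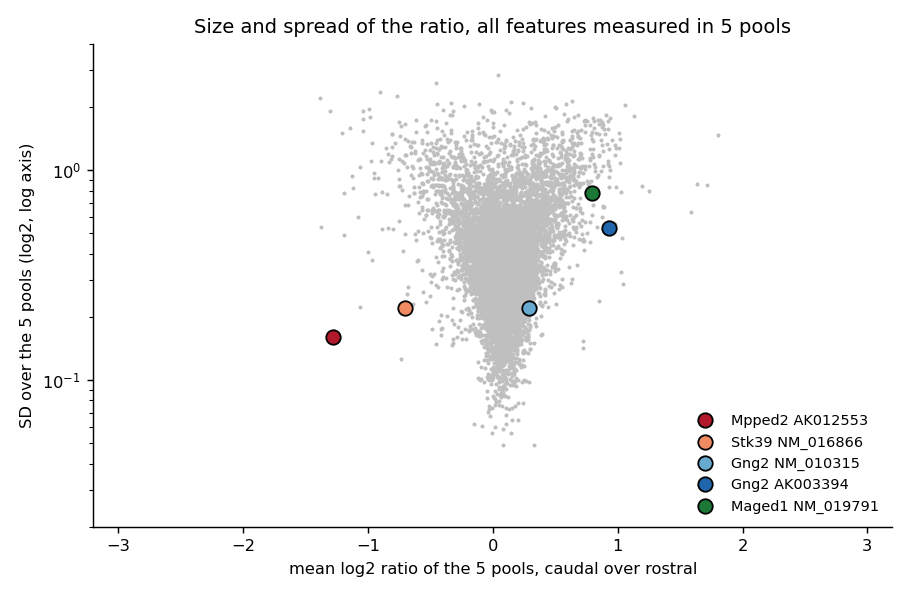
Each grey point is one of the 8924 features measured in 5 pools, with the mean log2 ratio of caudal over rostral RNA on the x axis and its SD over the pools on a log y axis; coloured points are the 5 features of the named genes. Mpped2 sits at a low mean with an SD of 0.16, and Maged1 at a high mean with an SD of 0.78.

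Since the pools had different medians, each ratio was also ranked among the features of its own pool. Mpped2 stood between percentiles 0.179 and 2.73 in all 5 pools. Stk39 stood at percentile 25.8 in MF1 pool 1 and between 0.504 and 5.12 in the other 4. Gng2 AK003394 stood at percentile 85.9 in MF1 pool 1 and between 94.2 and 99.2 elsewhere, while Gng2 NM_010315 ranged from 55.2 to 93.8. Maged1 stood at percentile 23.4 in MF1 pool 1 and between 93.8 and 98.1 elsewhere, so 3 of the 5 features were nearer to the middle in that pool than in the others. After each array was centred on its median, Mpped2 and Stk39 stayed negative and both Gng2 features positive in 5 pools, and Maged1 stayed negative in MF1 pool 1. Centring left 5.84% of the 8924 features positive and 2.57% negative in every pool.

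**Figure D3:**
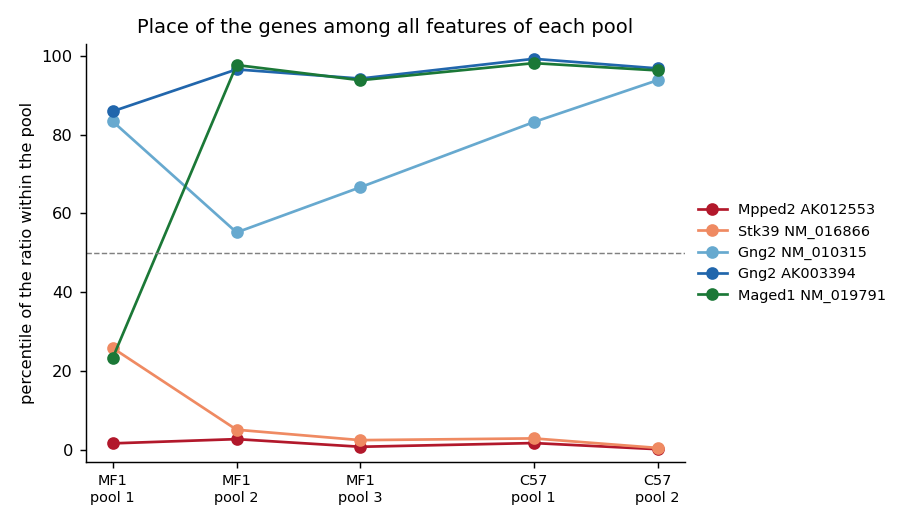
The y axis is the percentile of each feature's caudal over rostral ratio among all features of the pool, by pool, with MF1 left of C57 and the dashed line at the middle. Mpped2 stays at or below 2.73 in every pool, while Maged1 stands at 23.4 in MF1 pool 1 and between 93.8 and 98.1 in the other 4.

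No close relative tested here passed the limma test, and neither did any other of the 11855 tested features. Mpped1, the relative of Mpped2, was not analysed here. Oxsr1, the OSR1 kinase nearest to Stk39, had -0.05, 0.01 and -0.09 in MF1 pools 1, 2 and 3 and 0.22 and 0.73 in C57 pools 1 and 2, with a mean of 0.22 ± 0.15 and a limma adjusted p of 0.983. The kinase and its relative thus had means of opposite sign, a difference that was not tested. The mean of Oxsr1 moved with the C57 pools: it was 0.09 without C57 pool 2 and 0.35 without C57 pool 1, and 0.02 on arrays with caudal RNA in Cy5 alone.

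The kinases and transporters around Stk39 did not pass either, like every other tested feature. The list covers WNK signalling, its adaptors, cation-chloride cotransport and also other kinases, such as Stk11 and Stk4. It had 12 positive and 3 negative means over 15 other tested features. Its median was 0.11, and 0 had an unadjusted limma p below 0.05. Of all tested features, 30.6% had a negative mean, and 1.98% and 1.11% had such a p with more and less RNA caudally. Slc12a2, the NKCC1 importer of chloride, averaged 0.15 ± 0.14, and Slc12a5, the KCC2 exporter, 0.09 ± 0.18. Cab39 and Cab39l, the MO25 proteins that help activate SPAK, averaged 0.08 ± 0.14 and 0.11 ± 0.24. The lowest mean was that of the potassium-chloride cotransporter Slc12a4, at -0.46 ± 0.32, where C57 pool 1 alone read -1.90. Wnk4, an upstream kinase, averaged -0.15 ± 0.30 over 4 pools.

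Of the other G protein gamma subunits, 5 of 11 features were tested, 4 with a positive and 1 with a negative mean, though Gng10 turned to -0.04 once arrays were centred and to -0.05 once they were also scaled. Gngt2, a gamma subunit of cone photoreceptors, averaged 0.23 ± 0.17, Gng3 0.15 ± 0.17, Gng13 0.12 ± 0.18 and Gng10 0.01 ± 0.17. Gng5 averaged -0.11 ± 0.14. None of the 5 had an unadjusted limma p below 0.05. All lay below both Gng2 features, but Gng2 was chosen for its ratios in these pools. The pools of all 5 fell on both sides of 0.

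The alpha, beta and gamma subunits together, without Gng2, gave 23 tested features with 16 positive and 7 negative means, a median of 0.05, which was -0.02 with scaled arrays, and 0 unadjusted limma p below 0.05. Gnao1, the alpha subunit abundant in brain, averaged 0.28 ± 0.20, and the beta subunit Gnb4 0.24 ± 0.15. Over all tested features, 30.6% of means were negative. Of 26 features for regulators and effectors of G proteins, 17 were positive and 9 negative, with a median of 0.09. The unadjusted limma p was below 0.05 for 1 of them, against 1.98% of all tested features with more RNA caudally and 1.11% with less. It was Pik3cb, a phosphoinositide 3-kinase that G beta-gamma can activate. It averaged 0.47 ± 0.18, was positive in 5 of 5 pools, and had an adjusted p of 0.983.

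In the MAGE family, 7 features of 7 genes other than Maged1 were tested, 4 with a positive and 3 with a negative mean and a median of 0.11. The share with a negative mean was 30.6% over all tested features. Maged2, the closest relative of Maged1, had -0.19, 1.60 and 0.59 in MF1 pools 1, 2 and 3 and -0.02 and 0.65 in C57 pools 1 and 2. It was highest in MF1 pool 2 and lowest in MF1 pool 1, as were Maged1 and, from other lists, Six3 and Lum. Over all tested features, MF1 pool 1 had the lowest median, at -0.18, and MF1 pool 2 the largest SD, at 0.77. How many features share this order was not counted. The mean of Maged2 was 0.49 ± 0.29 (limma adjusted p of 0.983), or 0.26 without MF1 pool 2 and 0.32 without C57 pool 2. Tro, which encodes the MAGE protein trophinin, was positive in 5 of 5 pools, from 0.19 to 0.26 in MF1 and at 0.25 and 0.56 in C57, with a mean of 0.31 ± 0.14. Ndn, encoding necdin, a MAGE protein of postmitotic neurons, averaged 0.11 ± 0.17. Another 9 features of MAGE genes were measured in too few pools for a test.

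Magee1, a MAGE protein of the dystrophin complex, had -0.66, -0.53 and -0.59 in MF1 pools 1, 2 and 3, and 0.54 and 0.45 in C57 pools 1 and 2. The strains did not overlap, as in 15.2% of the 8924 features with MF1 lower, and their signs differed, as in 4.25%. The difference was -1.09, with a limma adjusted p of 0.999 for MF1 minus C57.

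Partners of Maged1 in neurotrophin and BMP signalling gave 23 tested features with a median of 0.07. Their means were positive for 14 and negative for 9, where 30.6% of all tested features were negative. The unadjusted limma p was below 0.05 for 2, both with less RNA caudally, where 1.11% of all tested features stood: Bex1 at -0.49 ± 0.17 and Bex2 at -0.39 ± 0.13. Both encode small adaptor proteins of the family that includes the p75-binding protein Bex3, and both were negative in 5 of 5 pools. Bex3 itself averaged -0.24 ± 0.16. Pja1, a ubiquitin ligase that binds Maged1, had -0.28, 1.41 and 0.37 in MF1 pools 1, 2 and 3 and 0.55 and 0.50 in C57 pools 1 and 2, with a mean of 0.51 ± 0.27. All 4 had a limma adjusted p of 0.983.

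Around Mpped2, other phosphoesterases and its chromosomal neighbours were compared. Of 16 other phosphoesterase features, 12 were positive and 4 negative, with a median of 0.11 and 0 unadjusted limma p below 0.05. Negative means made up 30.6% of all tested features. In the gene order of GRCm38.p6, Mpped2 lies 5 genes from Pax6, a transcription factor of cortical progenitors. The 7 tested features of 6 neighbouring genes had 5 positive and 2 negative means, a median of 0.07 and 0 unadjusted limma p below 0.05. Pax6 averaged 0.10 ± 0.17 over 4 pools on one feature and 0.02 ± 0.14 on the other, and Immp1l and Dnajc24, 3 and 2 genes from Mpped2, averaged 0.13 ± 0.14 and -0.05 ± 0.17. Rcn1 averaged -0.12 ± 0.18. On the other side, Fshb averaged 0.07 ± 0.14 and Kcna4 0.58 ± 0.40, where MF1 pool 2 alone read 2.66. The nearest neighbour measured, Arl14ep, had too few pools for a test. The list leaves out Mettl15, Kif18a, Bdnf and Lin7c, 4 to 7 genes away, which were looked up after its values were seen. Their 5 features averaged 0.03 to 0.28, and none had an unadjusted limma p below 0.05. Them7, 7 genes away on the side of Pax6, is also left out and is not described here.

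**Figure D4:**
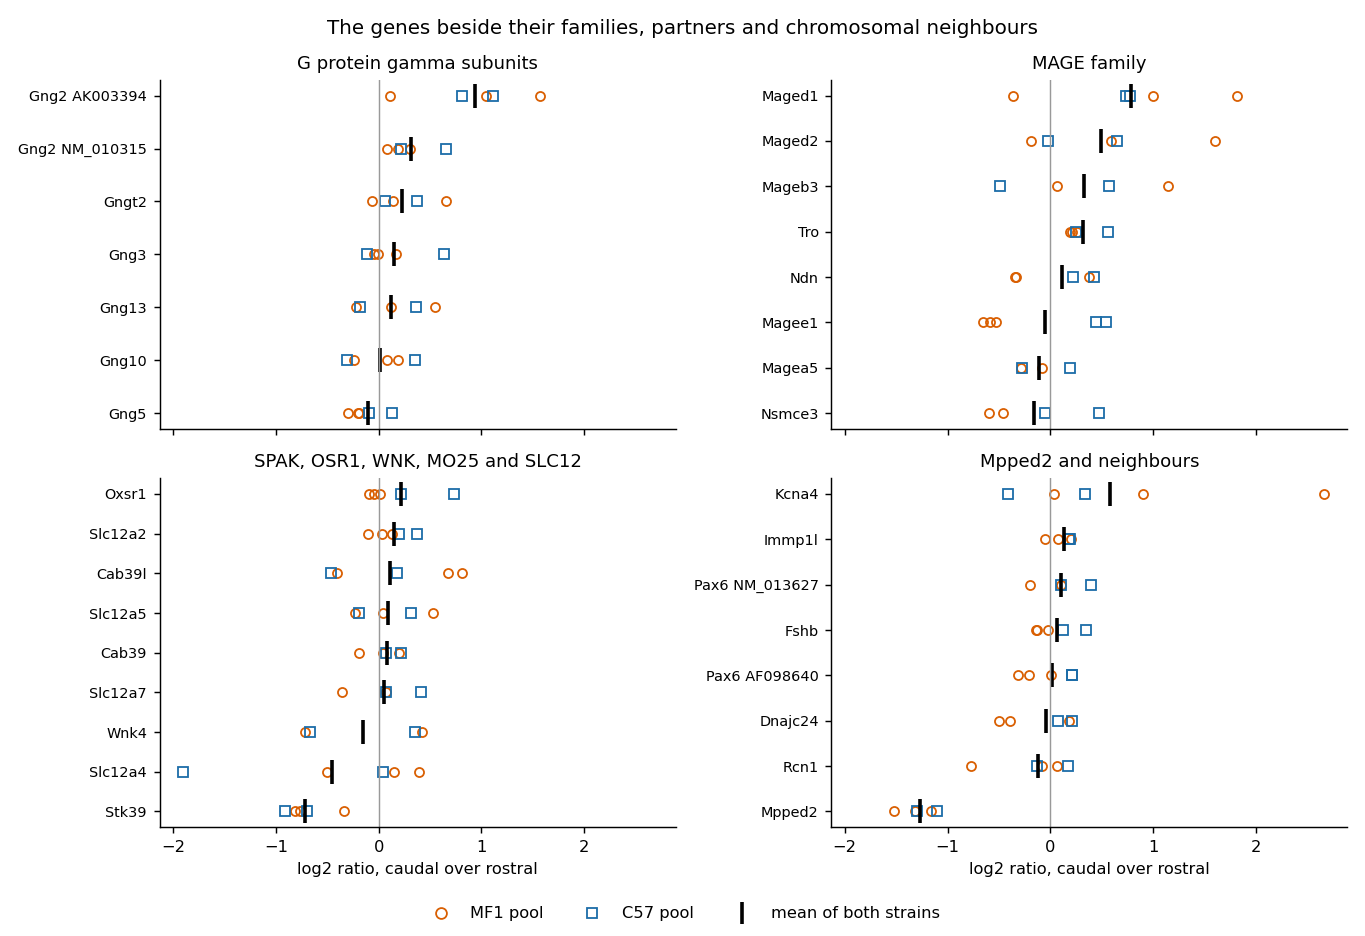
The x axis is the log2 ratio of caudal over rostral RNA for tested features of each family, with MF1 pools as circles, C57 pools as squares and the mean of both strains as a black bar. Mpped2 and Stk39 lie lowest of their panels by mean, and Gng2 and Maged1 highest of theirs. The 4 genes were chosen for their ratios in these pools, so these places are a description only.

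The features nearest to each gene over the 5 pools were found by the root mean square difference of the log2 ratios, among 7531 features with 1 symbol. They were chosen by their values and are described without a test. Nearest to Mpped2 were Sfrp1, a secreted Wnt antagonist, at a difference of 0.35, Spry1, a feedback inhibitor of FGF signalling, at 0.42, and Sall3, a zinc finger transcription factor, at 0.47. Spry1 read -1.88, -1.58 and -1.83 in MF1 and -0.72 and -0.90 in C57, with a limma adjusted p of 0.999 for MF1 minus C57.

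Nearest to Stk39 were the ephrin ligand Efnb2 at 0.14, the noncoding RNA Pantr1 at 0.25 and the glutamate transporter Slc1a3 at 0.29. Efnb2 had -0.40, -0.82 and -0.67 in MF1 pools 1, 2 and 3 and -0.90 and -0.41 in C57 pools 1 and 2. MF1 pool 1 was nearest to 0 in both, though C57 pool 2 was almost as near in Efnb2. Nearest to Gng2 NM_010315 were Rtn4, which encodes Nogo, and Septin3, both at 0.07, and Meaf6 at 0.09, all with means between 0.32 and 0.37. The ratios of Gng2 NM_010315 were small, at rank 1581 from the highest, so a small difference from other features says little.

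Nearest to Maged1 were Tmed9, a cargo receptor of the early secretory pathway, at 0.20, Zcchc18 at 0.25 and the alpha tubulin Tuba3a at 0.27. Tmed9 had -0.01, 1.88 and 0.78 in MF1 pools 1, 2 and 3 and 0.61 and 0.75 in C57 pools 1 and 2. All 3 were lowest in MF1 pool 1, where they were below 0, and highest in MF1 pool 2. Gng2 AK003394 differed from Maged1 by 0.29 and was likewise lowest in MF1 pool 1 and highest in MF1 pool 2. The share of all features with this order was not counted. Mpped2 and Stk39 differed from each other by 0.67.

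**Figure D5:**
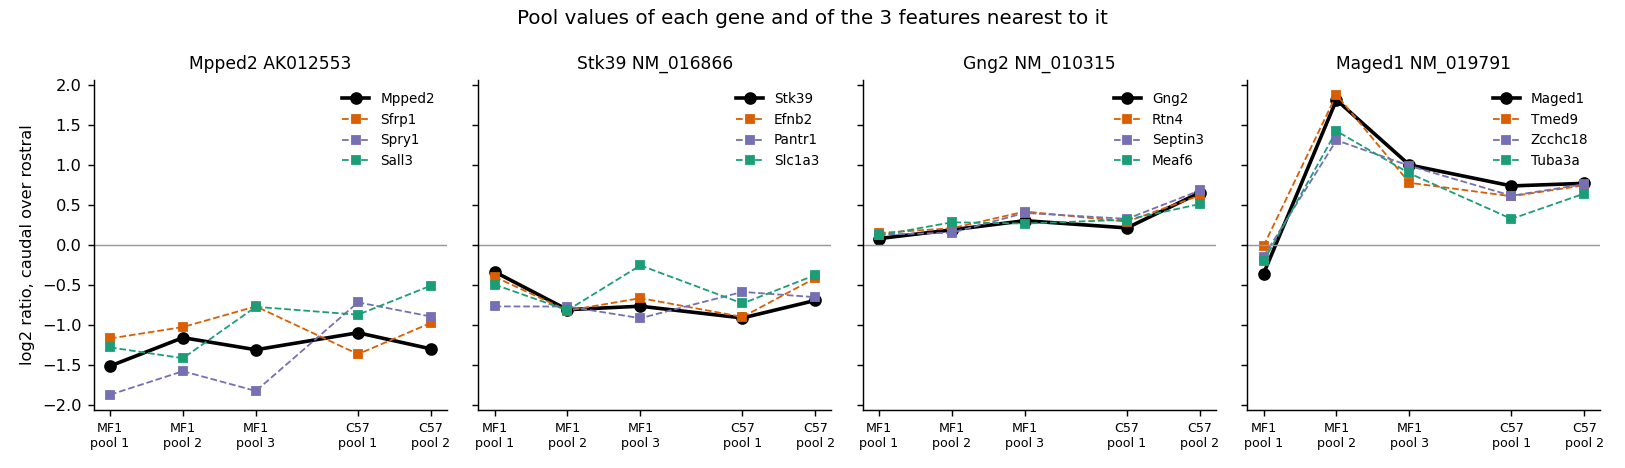
The y axis is the log2 ratio of caudal over rostral RNA by pool, with MF1 left of C57; black lines are the named genes and dashed lines the 3 features nearest to each. In the Maged1 panel all 4 lines are lowest in MF1 pool 1 and highest in MF1 pool 2.

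Markers of other cells were read in the same pools, where 30.6% of all tested features had a negative mean. Early neuron markers were positive for 11 of 13 features, with a median of 0.27 and pool medians of 0.20, -0.03 and 0.23 in MF1 and 0.21 and 0.51 in C57. Cortical hem and choroid plexus markers were positive for 6 of 6 features, with a median of 0.51 and pool medians of 0.48, 0.97 and 1.14 in MF1 and 0.27 and 0.64 in C57. Blood markers were positive for 7 of 7, with a median of 0.41. Their pool medians were -0.03, 0.26 and 0.18 in MF1 and 0.64 and 0.38 in C57. On the rostral side, surface ectoderm markers were negative for 5 of 5 features, with a median of -0.33. The pools differed here, with medians of -0.40, -0.86 and -1.55 in MF1 and -0.43 and 0.18 in C57. Ventral telencephalon markers were negative for 6 and positive for 5 of 11, with a median of -0.23 that was 0.07 without C57 pool 1. Among them, Dlx1 averaged -1.69 in MF1 and -0.28 in C57, and Dlx2 -1.58 and 0.06. With less RNA caudally, 3 of the 11 and 2 surface ectoderm features had an unadjusted limma p below 0.05 (1.11% of all tested). With more, 3 hem and choroid plexus, 2 blood, 2 early neuron and 1 endothelial feature did (1.98% of all tested). Progenitor markers were positive for 8 of 12, with a median of 0.07. Meningeal and endothelial markers had medians of 0.01 and 0.13 over 7 features each. The part of these tissues in the ratios of the 4 genes was not tested.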

How the data were processed

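The deposited values are log2 ratios of the 2 channels of each array, a unit read from the values. Nothing in the labels names the scanner, the background correction or a normalization. The authors amplified cDNA before labelling, per the labels' protocols. Values at 16.61, a shared ceiling (436 values), were treated as missing, and 232 control spots were left out. Arrays were turned to caudal over rostral by their dye labels, and the dye-exchanged arrays of each pool were averaged, without centring, to 1 value. The test was limma (version 3.58.1, under R 4.3.3; lmFit and eBayes, 1 coefficient per strain, two-sided, Benjamini-Hochberg over 11855 features), with 2.69 prior and 3 residual degrees of freedom; p-values measure the spread between pools. The procedure was tested on simulated data. Features were named from the platform annotation: 16632 carried 1 symbol, 139 several and 4995 none.

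The 4 genes and all lists were chosen with earlier results of these data known. Named by rule were all features of the 4 genes, their paralogues, the MAGE, SPAK-WNK-SLC12 and neighbour lists, up to 3 features of smallest p per direction in other lists, 4 genes for the direction, and the 3 nearest features of each gene's first probe. Alternatives covered centring, scaling, the filter, single dye orientations, single arrays, averaging of probes, the replicate block and leaving out each pool. The design text gives 3 sets for C57, whereas the sample labels name 2 C57 pools, and both were analysed here.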

Additional observations from a re-analysis of the deposited data

Results flagged for a closer look

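Magee1 (AF319978) had a difference of -1.09 for MF1 minus C57, with means of -0.59 in MF1 and 0.49 in C57; all 3 MF1 pools were negative and both C57 pools positive. After centring of the arrays the same signs held, with C57 pool 2 at 0.08. Fshb (NM_008045), a chromosomal neighbour of Mpped2, had a difference of -0.33, with means of -0.09 in MF1 and 0.23 in C57. It had the same split of signs, as did 4.25% of the 8924 features measured in all 5 pools. The strains did not overlap, with MF1 lower, in 15.2%. Centred, MF1 pool 1 was 0.17 and C57 pool 2 was -0.02, so that split was gone. By limma, the adjusted p of both differences was 0.999.

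In Pik3cb (AK003230), MF1 pool 2 stood apart from the other 4 pools at 1.11. In Tro (NM_019548), C57 pool 2 stood apart at 0.56. The gap to the nearest pool was 0.731 and 0.81 of the whole range. Centred, the largest such gaps were 0.553 and 0.0545 of the range, and neither pool stood apart by the same measure. Chance sets apart about 1 in 20 groups, and no feature of Mpped2, Stk39, Gng2 or Maged1 was set apart in this way.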

How the results depend on the processing

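The 5 features of Mpped2, Stk39, Gng2 and Maged1 kept their direction under the 12 alternatives run for them: centring, scaling, ceiling values, single dye orientations, equal pool weights, averaged features and each pool left out. Mpped2 moved to -1.55 with arrays centred and scaled, -1.03 with Cy5 arrays alone (caudal RNA in Cy5, both strains weighted equally) and -1.50 with Cy3 arrays alone. Gng2 NM_010315 moved to 0.59 with Cy5 arrays, 0.0408 with Cy3 arrays and 0.62 with both Gng2 features averaged. Leaving out each pool in turn gave -1.32 to -1.21 for Mpped2, -0.80 to -0.67 for Stk39, 0.20 to 0.42 and 0.77 to 1.13 for Gng2, and 0.54 to 1.08 for Maged1. Without a C57 pool the remaining one is assumed to vary like the MF1 pools.

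Adjusted calls for both strains numbered 1 with scaled arrays, 1 with arrays fitted singly with a dye term, and 8 when these were also centred, an alternative chosen after seeing the data. Mpped2 was among the 8, a call on the values that chose it. Unadjusted calls numbered 727 with scaled arrays, 1021 with Cy5 and 1472 with Cy3 arrays, and 1182 with the loosest filter. Leaving out a pool gave 242 to 1442: 1442 without MF1 pool 1, 599 without MF1 pool 3 and 242 without C57 pool 1. The split of positive and negative calls was 235 and 132 as reported, 270 and 272 with centred arrays, and 416 and 311 with scaled ones. For MF1 minus C57, unadjusted calls numbered 223 as reported, 446 with scaled arrays, 460 with Cy5 and 834 with Cy3 arrays, 1058 with the loosest filter and 147 for features on all 10 arrays. Leaving out a pool gave 183 to 897, with 897 without MF1 pool 1 and 512 without MF1 pool 3.

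Among the relatives, Cy3 arrays gave Gng3 -0.0483, Gng10 -0.15 and Gng5 0.00458, and Gng10 was -0.0356 with centred and -0.0501 with scaled arrays. Leaving out a pool gave -0.15 to 0.18 for Gng10, -0.0147 to 0.26 for Gng13 and -0.038 to 0.34 for Gng3. List medians moved with Cy3 arrays to -0.21 (MAGE), -0.12 (phosphoesterases), -0.17 (neighbours of Mpped2), -0.34 (rostral gradient genes), -0.28 (progenitor) and 0.0236 (early neuron). With Cy3 arrays, medians were below 0 as well for subunits (-0.06), effectors (-0.11), WNK-SPAK (-0.04), Maged1 partners (-0.06), endothelium (-0.09) and meninges (-0.03). They stayed above 0 for hem and choroid plexus (0.50), blood (0.28) and caudal gradient genes (0.12). Cy5 arrays gave 0.31 for phosphoesterases, 0.38 for the neighbours and 0.03 for ventral telencephalon. Without a pool, medians changed sign for meninges (-0.37 to 0.14), ventral telencephalon (-0.44 to 0.07), effectors (-0.09 to 0.24), Maged1 partners (-0.05 to 0.20), endothelium (-0.02 to 0.28), progenitors (-0.03 to 0.09) and MAGE (-0.01 to 0.17). They kept their sign but moved for subunits (0.01 to 0.13), WNK-SPAK (0.03 to 0.22), phosphoesterases (0.04 to 0.19), neighbours (0.02 to 0.08), early neurons (0.13 to 0.34), surface ectoderm (-0.51 to -0.25) and rostral (-0.14 to -0.06) and caudal (0.29 to 0.58) gradient genes. The causes were not tested.

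With the replicate block for pools 1 and 2 of both strains, MF1 minus C57 had 0 adjusted and 327 unadjusted calls. The labels do not say that pool numbers pair the strains, and deviations of same-numbered pools correlated at 0.149 and -0.02.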

Other observations

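Known gradient genes were listed for orientation. The rostral list had 3 positive and 6 negative means over 9 features, with a median of -0.09, and the caudal list 5 positive and 1 negative over 6, with a median of 0.38. Of the 13 early neuron features, 2 had an unadjusted limma p below 0.05 with more RNA caudally, against 1.98% of all tested features. They were Neurod1 and Nhlh2, transcription factors of newborn neurons. Neurod1 averaged 0.74 ± 0.14 and Nhlh2 0.62 ± 0.17, with a limma adjusted p of 0.983. Both were positive in 5 of 5 pools, though Nhlh2 read 0.01 in MF1 pool 2. The 2 negative features were Reln at -0.65 ± 0.25 and Elavl3 at -0.07 ± 0.20, each over 4 pools.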
